A study of Mus musculus with 2 samples.

Results

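In the deposited table of gene expression in mouse cerebral cortex, 80 gene models were listed at exactly 0 in 1 library and above 0 in the other, with a mean of at least 1 FPKM over both. FPKM is the number of sequenced fragments per kilobase of gene model, scaled to the mapped fragments of the library. These 80 were selected on those values from the 37303 gene models of the table, with mitochondrial symbols (mt-) left out. Of them, 38 were at 0 in the wild-type (WT) library and 42 at 0 in the *Rbfox3*-/- (KO) library. They made up 0.614% of the 13026 gene models with a mean of at least 1 FPKM, or 0.292% for a value of 0 in WT and 0.322% for a value of 0 in KO. The values that chose the models are given below as descriptions, and no test was made on them.

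The study compared 1 WT and 1 homozygous *Rbfox3* KO library of strain B6. The RNA came from the right cortical hemisphere of male mice, for which the methods of the study give an age of P56 and the allele tm1a(EUCOMM)Hmgu on a C57BL/6N background. RBFOX3, also called NeuN, is a neuronal splicing regulator. With 1 library for each genotype, no spread between mice was measured, and every difference is between these libraries and not between the genotypes. *Rbfox3*, the targeted gene, was at 57.3 (WT) and 6.46 FPKM (KO).

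Markers of cortical neurons were present in both libraries. The 7 measured gene models of the excitatory neuron list summed to 840 (WT) and 892 FPKM (KO), and the 6 of the inhibitory neuron list to 395 and 400.2 FPKM. All 4 choroid plexus markers were above 0 in both libraries, and their sum was 226 (WT) and 4.84 FPKM (KO). The sum of the 5 striatal markers was 114 (WT) and 47.8 FPKM (KO), and that of the 4 oligodendrocyte markers was 1181 and 816 FPKM. Their part in the values of the 80 models was not tested, and in such tissue RNA fewer cells of a type and less RNA per cell cannot be told apart. A value of 0 was also listed for a transcript that every cell uses: *mt-Co1*, which encodes a subunit of cytochrome c oxidase, was at 24564 FPKM in WT but listed at 0 in KO. A gene model is therefore only said here to be listed at 0.

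Most of the 80 models were short non-coding RNAs. MicroRNAs (miRNAs) are cut from a hairpin precursor and pair with messenger RNAs through the seed, the bases near their 5′ end. Small nucleolar RNAs (snoRNAs) guide chemical changes on ribosomal RNA, and those of the box H/ACA type guide pseudouridylation and mostly lie in introns of host genes, from which they are released after splicing. Small nuclear RNAs (snRNAs) such as U1, U2 and U6 form the spliceosome, and small Cajal body RNAs (scaRNAs) guide changes on snRNAs. By identifier, 69 of the 80 were found in the GENCODE M21 annotation. They comprised 23 snoRNAs, 21 miRNA-class models, 13 snRNAs, 5 protein-coding genes, 3 processed pseudogenes, 2 ribosomal RNA models, 1 scaRNA and 1 transcribed processed pseudogene. The other 11 identifiers were not found there.

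Of the miRNA-class models, 4 carry the name of a miRNA that RefSeq (build GRCm38.p6) also holds. Each model spans the whole hairpin, so its FPKM is not a level of the mature miRNA. The mature sequences found for these names are shown since they tell which miRNA each model is named after. Their seed (bases 2 to 8) is in capitals.
mmu-miR-129-5p: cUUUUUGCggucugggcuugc
mmu-miR-540-5p: cAAGGGUCacccucugacucugu
mmu-miR-540-3p: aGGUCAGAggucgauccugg
mmu-miR-2861: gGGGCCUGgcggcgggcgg
mmu-miR-5133: gCUGGAGCugcggcagcgcag
No seed was shared among the 5 mature sequences. *Mir129-1* (chr6:29022619-29022691, plus strand, 73 bp) was listed at 0 in WT but at 20562 FPKM in KO. *Mir129-2*, its paralog on chromosome 2, was at 0 in both libraries. The other 3 were at 0 in KO. *Mir5133* (chr9:62122518-62122594, minus strand, 77 bp) was at 12200 FPKM in WT, *Mir2861* (chr2:32712807-32712888, minus strand, 82 bp) at 8520 FPKM and *Mir540* at 4723 FPKM. The deposited locus of *Mir540* on chromosome 12 spans 84 bp, and the RefSeq hairpin (chr12:109586080-109586146, plus strand) spans 67. *Mir540* lies in the same imprinted region as *Meg3*, a long non-coding RNA, which was at 749 (WT) and 666 FPKM (KO). *Mir433*, a miRNA gene in the same region, was above 0 in both libraries (16.0 FPKM in WT, 13.7 FPKM in KO).

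A further 11 miRNA-class models were near-identical copies of each other. They carry clone-based symbols, are 125 to 126 bp long and lie scattered over several chromosomes. Over their 55 pairs, sequence identity ranged from 93.6% to 99.2%, with a median of 96.0%. A search of all GENCODE transcripts for copies, with at least 90% identity over at least 90% of the length, found each of the 11 models in 1471 to 1969 other genes, in both orientations.

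In the table, 38 models that GENCODE places on their deposited locus were at least 90% identical to the most central of the 11. Of these, 26 were listed at 0 in both libraries, 5 at 0 only in WT, 6 at 0 only in KO, and 1 was above 0 in both. The 6 models above 0 only in WT were CT010471.1 (18.4 FPKM), AC124394.1 (18.5 FPKM), AC122252.1 (18.5 FPKM), AL844840.1 (19.3 FPKM), CT030729.1 (20.1 FPKM) and AC122925.1 (20.5 FPKM). The 5 above 0 only in KO were AL732525.2 (16.9 FPKM), AL591584.1, AL589902.1 and AC136976.1 (17.8 FPKM each) and AC132380.1 (18.2 FPKM). The model above 0 in both, AL662817.1, was at 36.9 (WT) and 32.8 FPKM (KO). The spread among models of 1 length varied. The 3 WT values of the 126-bp members spanned 0.208% of their mean, and the WT value of AL662817.1 was 2.0 times that mean. In KO, AL662817.1 was at 32.8 FPKM, and the only 126-bp model of the 11 above 0 there, AL732525.2, was at 16.9 FPKM. The 3 WT values at 125 bp spanned 5.84% of their mean and the 4 KO values at 125 bp 2.08%.

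**Figure D1:**
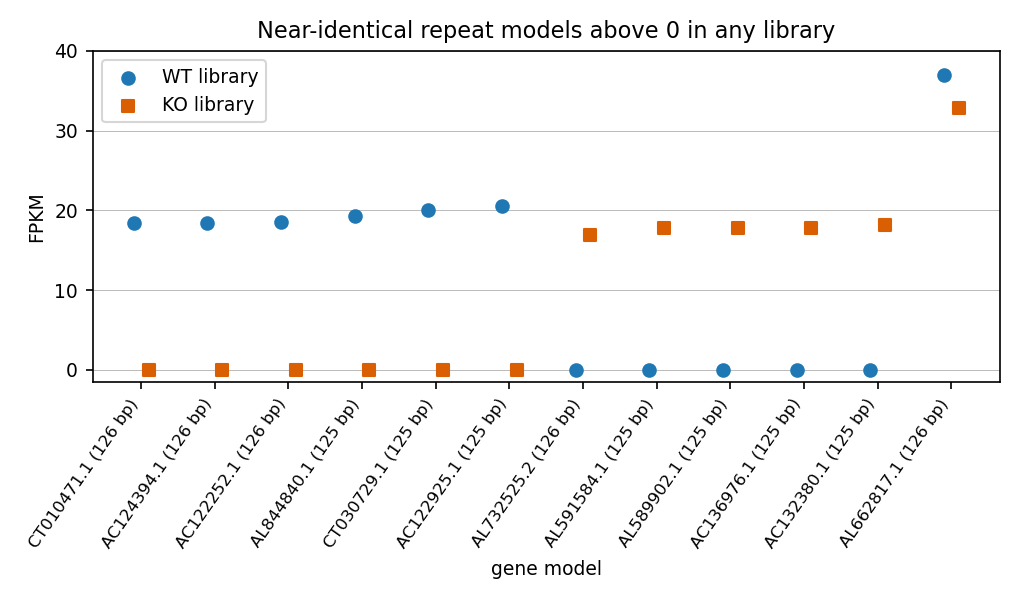
FPKM of the 12 near-identical gene models that were above 0 in any library, with WT values as blue circles and KO values as orange squares. The 6 models above 0 only in WT lie between 18.4 and 20.5 FPKM, the 5 above 0 only in KO between 16.9 and 18.2 FPKM, and AL662817.1 is above 0 in both.

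*Gm11032* (chr11:4620067-4621698, plus strand), annotated as protein-coding, holds the same repeat. Its spliced transcript of 102 bp was 92.2% to 96.1% identical to each of the 11 models. It had copies in 2078 other genes. *Gm11032* was listed at 0 in WT but at 364 FPKM in KO.

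The miRNA-class model with the highest value in KO, AC073553.3 (chr12:113425150-113425227, minus strand, 78 bp), is a tandem array of the letters GAGCT. It was listed at 0 in WT but at 27653 FPKM in KO. Models AC073553.1 (chr12:113424645-113424722) and AC073553.2 (chr12:113424749-113424818) of the same array lie close by on the same strand. The 3 sequences are shown, with each GAGCT in capitals, since so similar a sequence had a different pair of values in each model.
AC073553.1: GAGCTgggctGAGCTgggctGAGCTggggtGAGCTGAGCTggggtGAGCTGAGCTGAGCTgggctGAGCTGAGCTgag
AC073553.2: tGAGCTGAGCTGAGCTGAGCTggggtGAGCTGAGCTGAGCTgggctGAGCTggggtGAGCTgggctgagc
AC073553.3: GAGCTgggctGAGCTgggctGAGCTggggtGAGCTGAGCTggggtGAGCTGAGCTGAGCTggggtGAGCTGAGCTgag
AC073553.1 was at 0 in both libraries, and AC073553.2 was at 24061 (WT) and 21419 FPKM (KO). The letters GAGCT, searched on the transcript strand, occurred 9 to 10 times in these 3 models. At least 9 occurrences were found in 7 of the 1152 models of 60 to 90 bp with a sequence.

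Of the remaining miRNA-class models, AL935177.1 (chr11:52099043-52099153, minus strand, 111 bp) lies on the opposite strand of *Ppp2ca*, which encodes the catalytic subunit of protein phosphatase 2A. It covers the start of the *Ppp2ca* coding sequence, shown here with the start codon, read in reverse, in capitals.
AL935177.1: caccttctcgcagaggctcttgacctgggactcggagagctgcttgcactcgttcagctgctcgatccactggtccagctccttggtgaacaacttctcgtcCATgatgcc
AL935177.1 was at 1277 FPKM in WT but listed at 0 in KO, while *Ppp2ca* was at 74.2 (WT) and 70.9 FPKM (KO). AC163349.1, also of 111 bp, overlaps a coding exon of *Gria2*, an AMPA receptor subunit. It was listed at 0 in WT but at 67.0 FPKM in KO, and *Gria2* was at 176 (WT) and 200 FPKM (KO). AL954710.2 (96 bp), with copies in 205 other genes, was at 0 in WT but at 836 FPKM in KO. The GENCODE sequences of a further 2 members, AC120391.1 (16.7 FPKM in WT, 0 in KO) and AC160635.1 (0 in WT, 15.8 FPKM in KO), also held copies of all 11 near-identical models. GENCODE places these identifiers outside the deposited locus, so they were not counted among the 38.

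Among the 23 snoRNAs, 14 were listed at 0 in KO and 9 in WT. The one with the highest value, AC171272.4 (chr7:59490561-59490639, minus strand, 79 bp), was at 6858 FPKM in WT and 0 in KO. Its sequence is shown because the table holds many copies of it. Capitals mark TGATGA and CTGA, the letters of the C and D boxes that define box C/D snoRNAs.
AC171272.4: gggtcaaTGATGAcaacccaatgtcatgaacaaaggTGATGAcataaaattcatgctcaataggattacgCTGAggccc
Both motifs, searched on the transcript strand, were also present in 6 of the 613 miRNA-class models of 60 to 90 bp (0.979%). Copies were found in 133 other genes, all of the snoRNA class. All 133 were listed at 0 in both libraries.

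The deposited symbols of 21 of the snoRNAs began with *Snora* or SNORA, which stand for the box H/ACA type. Such RNAs end with the letters ACA followed by 3 bases. This ending was present in 13 of the 21, against 245 of the 1004 models with such a symbol and a sequence (24.4%) and 4 of the 342 snRNA and miRNA-class models of 120 to 160 bp (1.17%). It is shown in capitals for *Snora31* (chr14:75847905-75848034, plus strand), which lies in an intron of *Tpt1*.
Snora31: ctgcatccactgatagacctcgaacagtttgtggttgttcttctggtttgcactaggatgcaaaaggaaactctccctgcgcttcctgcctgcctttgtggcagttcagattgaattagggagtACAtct
*Snora31* was listed at 0 in WT but at 9.88 FPKM in KO. *Tpt1*, which encodes the translationally controlled tumor protein, was at 400 (WT) and 318 FPKM (KO).

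The other box H/ACA models at 0 in WT were SNORA24 (49.7 FPKM in KO), *Snora15* (18.6 FPKM), SNORA61 (17.7 FPKM), *Snora30* (13.0 FPKM), SNORA43 (6.43 FPKM), SNORA22 (6.41 FPKM) and SNORA12 (4.41 FPKM). Those at 0 in KO were SNORA40 (46.2 FPKM in WT), SNORA17 (16.3 FPKM), SNORA44 (15.1 FPKM), SNORA63 (11.4 FPKM), SNORA1 (9.54 FPKM), SNORA2 (8.09 FPKM), *Snora64* (7.35 FPKM), *Snora34* (7.23 FPKM), SNORA4 (5.88 FPKM), *Snora65* (4.68 FPKM), SNORA67 (3.99 FPKM) and 2 models named SNORA48 (8.62 and 4.13 FPKM). The third SNORA48 model of the same 144 bp was above 0 in both libraries, at 4.37 (WT) and 15.7 FPKM (KO). The last snoRNA-class model, AC161198.1, was at 0 in WT but at 10.4 FPKM in KO. The scaRNA model SCARNA20 was at 0 in WT but at 12.6 FPKM in KO.

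Of the 13 snRNA-class models, 11 carried the name of a spliceosomal RNA. At 0 in WT were 2 models named U6 (85.3 and 42.4 FPKM in KO), 3 named U1 (3.68, 3.25 and 2.20 FPKM) and 1 named U2 (6.50 FPKM). At 0 in KO were the U11 model *Rnu11* (8.94 FPKM in WT), 3 named U1 (3.90, 2.61 and 2.23 FPKM), 1 named U2 (4.31 FPKM) and the clone-named AC161348.1 (156 FPKM) and AC159539.1 (6.30 FPKM). U1 models thus occurred on both sides in equal number. AC161348.1 had copies in 135 other genes, all of the snRNA class. The ribosomal RNA models n-R5s202 (59.0 FPKM in WT, 0 in KO) and 5S_rRNA (0 in WT, 49.0 FPKM in KO) are both of 114 bp.

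Over the whole table, most snoRNA, miRNA-class and snRNA models were at 0 in both libraries, and most of those that reached a mean of 1 FPKM were at 0 in 1 library. Of 1469 snoRNA models, 1440 were at 0 in both libraries. With a mean of at least 1 FPKM, 23 of 27 snoRNAs (85.2%), 21 of 26 miRNA-class models (80.8%), 13 of 19 snRNAs (68.4%) and 1 of 5 scaRNAs (20.0%) were at 0 in 1 library. The same held for 5 of 12230 protein-coding models (0.0409%), for 0 of 188 antisense models and for 0 of 90 lincRNAs. By symbol, 610 models began with *Mir*, and 601 of them were at 0 in both libraries. Without the minimum mean, 24 of 1469 snoRNAs, 21 of 1373 miRNA-class models, 18 of 1367 snRNAs and 964 of 21194 protein-coding models were at 0 in 1 library. The rule used these values, so the shares describe the selected models and are not a test.

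Most of the 80 were short. A length could be given for 75 of the 80, and it ranged from 67 to 7864 bp with a median of 126 bp. The 12850 models with a mean of at least 1 FPKM that were above 0 in both libraries and had a length showed a median of 3449 bp. In all, 71 of the 75 were shorter than 200 bp. Among models with a mean of at least 1 FPKM, 12 of 18 under 100 bp (66.7%) and 59 of 77 from 100 to under 200 bp (76.6%) were at 0 in 1 library. From 200 to under 500 bp it was 1 of 114 (0.877%), from 500 to under 1000 bp 1 of 571 (0.175%), from 1000 to under 10000 bp 2 of 11799 (0.0170%), and 0 of 346 longer ones. These high shares of short models held only with the minimum mean. Without it, 12 of 1888 models under 100 bp and 71 of 3395 from 100 to under 200 bp were at 0 in 1 library. It was then 449 of 3927 from 200 to under 500 bp, 641 of 5237 from 500 to under 1000 bp and 1183 of 21623 from 1000 to under 10000 bp.

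**Figure D2:**
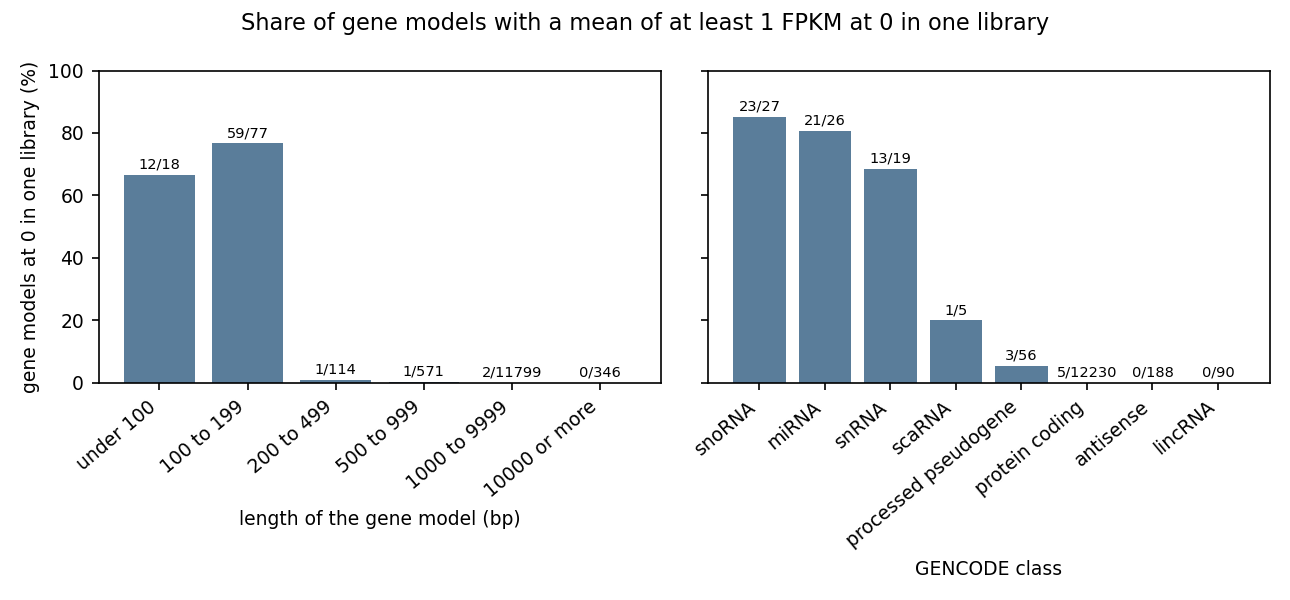
Share of gene models with a mean of at least 1 FPKM that were at 0 in 1 library, by length of the gene model (left) and by GENCODE class (right), with the counts above the bars. Below 200 bp the shares are 66.7% and 76.6%, and from 200 bp on no bar exceeds 0.877%. Without the minimum mean, 12 of 1888 models under 100 bp and 449 of 3927 from 200 to under 500 bp were at 0 in 1 library.

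The FPKM in the other library followed the length. The 8 members under 90 bp lay between 4723 and 38271 FPKM, with a median of 10961 FPKM. The 4 of 90 to under 100 bp lay between 836 and 1847 FPKM, the 18 of 120 to under 130 bp had a median of 17.8 FPKM, and the 7 of 150 to under 200 bp lay between 2.20 and 6.50 FPKM. Spearman's rho of length and FPKM was -0.977 over the 71 members under 200 bp, -0.968 over the 34 of them at 0 in WT and -0.983 over the 37 at 0 in KO. These correlations run across gene models that share a library, and FPKM itself divides by length, so they are descriptions. The fall from 38271 FPKM at 67 bp to 2.20 FPKM at 162 bp was far steeper than that division alone gives. Its source was not tested. The FPKM of models this short is therefore not comparable, as an amount of RNA, with that of longer models. AL935177.1 stood above the other models of its length: the 8 members of 110 to under 120 bp had a median of 54.4 FPKM, against its 1277 FPKM.

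**Figure D3:**
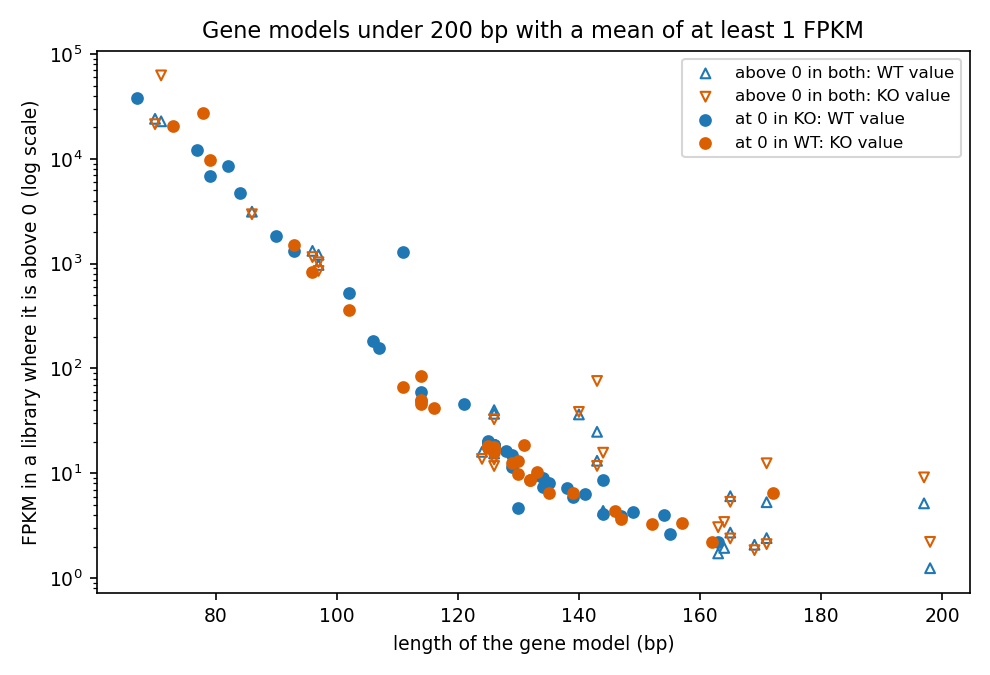
FPKM on a log scale against the length of the gene model, for models under 200 bp with 1 isoform row and a mean of at least 1 FPKM. Filled circles are models at 0 in the other library (blue, WT value; orange, KO value) and open triangles are both values of the 23 models above 0 in both; among the filled circles FPKM falls from 38271 at 67 bp to 2.20 at 162 bp, with AL935177.1 above the others at 111 bp, while some open triangles beyond 140 bp lie higher.

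Among models under 200 bp with 1 isoform row and a mean of at least 1 FPKM, 23 were above 0 in both libraries. In 12 of these the ratio of WT to KO lay between 1.12 and 1.18, with a median of 1.14, and in 4 it lay between 0.561 and 0.566, close to that median divided by 2 (0.569); these intervals were chosen after the values were seen. Over all 23 the ratio ranged from 0.278 to 3.41. The ratio over the 12143 models of 1000 bp or more with a mean of at least 1 FPKM and above 0 in both had a median of 0.981. A 2-fold difference, on the log2 of FPKM + 1, was found in 5 of the 23.

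All 80 models passed such a 2-fold threshold, which the rule itself fixes, since a value of 0 with a mean of at least 1 FPKM leaves at least 2 FPKM in the other library. They formed 80 of the 138 gene models past 2-fold (1.06% of 13026). Of the 63 models higher in KO (0.484%), 38 were listed at 0 in WT, and of the 75 lower in KO (0.576%), 42 were listed at 0 in KO. The 80 models held 7.39% of the summed FPKM in WT and 6.40% in KO, with mitochondrial symbols left out of the sum. That sum was 1.07e+06 (WT) and 958264 FPKM (KO). A single model outside the 80, *Mir5105*, was at 585764 (WT) and 464201 FPKM (KO) of it. The 5 highest of the 80 models made up 89.6% of the sum of the 80 in WT and 98.3% in KO. FPKM sums weight short models strongly and are not shares of fragments.

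The models not found in GENCODE included the highest value among the 80. AC134576.1 (67 bp, on chromosome 18) was at 38271 FPKM in WT and 0 in KO. AC165279.1 (90 bp) was at 1847 FPKM and AC125010.1 (93 bp) at 1307 FPKM in WT, and both were at 0 in KO. AL592465.1 (79 bp) was at 0 in WT but at 9723 FPKM in KO. AC139317.1, at 2473 FPKM in WT and 0 in KO, shared its deposited locus with *Racgap1*, a regulator of cell division, which was at 4.13 (WT) and 4.24 FPKM (KO). Gm20677 (5.50 FPKM in WT, 0 in KO) shared its locus with *Ube2e2*, a ubiquitin-conjugating enzyme at 61.5 (WT) and 59.1 FPKM (KO). AC121874.1 (0 in WT, 2.55 FPKM in KO) shared a locus with *Sil1*, a chaperone exchange factor at 5.54 and 5.50 FPKM. No length could be given for AC139317.1, Gm20677, AC121874.1, AC120391.1 or Gm16042.

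A symbol was shared with another gene model in 2 cases. The model named *Uck2* in this set (ENSMUSG00000053664, 93 bp, chr1:167223827-167223919) was at 0 in WT but at 1520 FPKM in KO. The longer *Uck2* model (ENSMUSG00000026558), for the uridine-cytidine kinase, was at 7.37 (WT) and 7.52 FPKM (KO). Gm16042 (ENSMUSG00000090234) was at 0 in WT but at 2.14 FPKM in KO, and the other model of that name (ENSMUSG00000090407), on the same deposited locus, was at 18.7 and 20.5 FPKM. The symbol with the identifier, not the symbol alone, therefore sets which values are meant.

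Pseudogenes are copies of genes that mostly no longer encode a protein. Gm13114 (106 bp) was at 181 FPKM in WT and 0 in KO. Gm14541 (157 bp, 3.34 FPKM in KO) and RP23-391B20.2 (132 bp, 8.61 FPKM in KO) were at 0 in WT, as was Gm14646 (132 bp, 8.70 FPKM in KO), which was not found in GENCODE. Copies were present for Gm14541 in 15 other genes and for RP23-391B20.2 in 6. In all, 64 members under 200 bp had a transcript sequence to search with, and 37 of them had no copy in a gene elsewhere, 17 had copies in 10 or more genes and 15 in 100 or more.

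Of the 5 protein-coding members, 3 were predicted genes with very short spliced transcripts of 2 exons. *Gm11032* is described above. *Gm17374* (chr2:140152043-140153532, plus strand, 102 bp) and *Gm11035* (GENCODE name *Gm21961*, chr15:64979544-65014904, minus strand, 114 bp) consist largely of simple repeats, and their sequences are shown for that reason, with the longest run of A and the longest run of CA in capitals.
Gm17374: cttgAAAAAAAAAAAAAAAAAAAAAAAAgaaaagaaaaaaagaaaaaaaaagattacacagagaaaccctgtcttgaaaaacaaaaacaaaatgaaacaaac
Gm11035: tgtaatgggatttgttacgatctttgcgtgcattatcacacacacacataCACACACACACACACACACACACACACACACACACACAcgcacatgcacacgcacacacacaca
In *Gm17374*, 72 of the 102 bases are A, and the longest run is 24 bases. The CA run of *Gm11035* is 38 bases. *Gm17374* was at 528 FPKM in WT and 0 in KO, and *Gm11035* was at 0 in WT but at 46.3 FPKM in KO. *Gm17374* lies on the opposite strand in an intron of *Esf1*, a gene of ribosome assembly, which was at 13.1 (WT) and 14.1 FPKM (KO).

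The other 2 protein-coding members were long genes. *Uhmk1* (chr1:170193420-170215397) encodes a serine/threonine kinase with an RNA recognition domain and has transcripts of 7676, 7775 and 7864 bp. It was listed at 0 in WT but at 78.2 FPKM in KO. *Phlpp2* (chr8:109868542-109944671) encodes a phosphatase that acts on AKT kinases and has transcripts of 1323, 7839 and 7846 bp. It was at 9.44 FPKM in WT but listed at 0 in KO. Both are far longer than the other members.

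Isoform rows showed the same library at 0 in each of the 80 models. The isoform table held 84 rows for them, 1 for each of 78 models and 3 each for *Uhmk1* and *Phlpp2*. The summed isoform values differed from the gene value by at most 2e-06 FPKM. The *Uhmk1* isoforms were at 61.2, 17.0 and 0 FPKM in KO, and all 3 were at 0 in WT. The *Phlpp2* isoforms were at 7.79, 1.49 and 0.164 FPKM in WT, and all 3 were at 0 in KO. Isoform values are split from the gene's fragments by the same program and are not a second measurement.

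**Figure D4:**
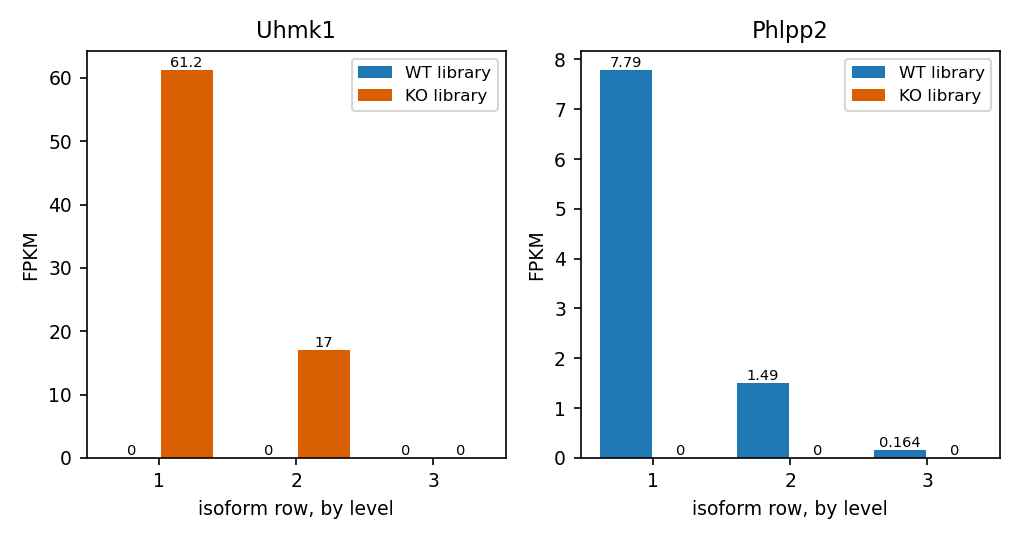
FPKM of the 3 isoform rows of *Uhmk1* (left) and *Phlpp2* (right), ordered by level, with WT in blue and KO in orange. All *Uhmk1* isoforms are at 0 in WT and all *Phlpp2* isoforms at 0 in KO.

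The neighbours on the same deposited locus were mostly above 0. A deposited locus is the span over which overlapping gene models were quantified together, from 67 to 338261 bp for the 80 models, and 50 of them shared a locus with at least 1 other model. These 50 lay on 47 loci, of which 3 were at 0 in 1 library over all their models. On the *Uhmk1* locus, the antisense gene *4930500M09Rik* was also at 0 in WT, and was at 0.691 FPKM in KO. On the *Phlpp2* locus, Gm16349 was at 0 in both libraries. The third was the locus of AL807777.1, a transcribed processed pseudogene of 651 bp at 11.1 FPKM in WT and 0 in KO, where *Rpl7a-ps12* was at 0 in both. On the other 44 loci, at least 1 further model was above 0 in the library where the member was at 0. One member of intermediate length, Gm13834 (304 bp), was alone on its locus, at 0 in WT and 6.20 FPKM in KO.

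Of the 75 members with a position, 47 lay entirely inside the GENCODE span of a longer gene of the table, its host, and 28 in none. Among the 47, *Mir5133*, SNORA1, *Mir129-1*, the 93-bp *Uck2* model and Gm13834 were each alone on their deposited locus. The deposited model of their host thus did not cover them. The hosts were 46 distinct genes. Members lay in an intron in 30 cases, over an exon outside the coding sequence in 15 and over a coding exon in 2. A member counted as exonic if an exon of any GENCODE transcript of the host overlapped any part of it. Such a member can still lie in an intron of the host's other transcripts. Where strand was known, 34 of 45 had a host on the same strand. Of the 24 snoRNA and scaRNA members, 17 had a host on the same strand. Hosts were sought only for the members, so the shares among all snoRNA or short models are not known. Whether these counts are particular to the members is therefore not known. The table does not show how fragments over both a member and an exon of its host were assigned. The values of exonic members that share a deposited locus with their host are therefore uncertain.

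None of the 46 hosts was at 0 in only 1 library, and none differed by 2-fold. Over the 13026 models with a mean of at least 1 FPKM these shares were 0.614% and 1.06%. At shares this low, finding none among 46 genes does not set the hosts apart. *Rpl7a-ps12*, the host of AL807777.1, was at 0 in both. Their log2 ratio of KO to WT, on FPKM + 1, ranged from -0.33 to 0.36 with a median of 0.04, beside a median of 0.02 over the 13026 models. The median was 0.04 for the 20 hosts of members at 0 in WT and 0.03 for the 26 hosts of members at 0 in KO. *Eif4a2*, which encodes a translation initiation helicase, was at 502 (WT) and 476 FPKM (KO), and it holds both SNORA63 and SNORA4, which were at 0 in KO. *Cct6a*, a chaperonin subunit at 65.8 and 62.7 FPKM, holds SNORA22 and *Snora15*, which were at 0 in WT. *Rpl12* and *Rps2*, genes of ribosomal proteins, were at 117 and 104 FPKM and at 102 and 97.4 FPKM, and they hold *Snora65* and *Snora64*, both at 0 in KO.

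Of the 4 named miRNAs, 3 had a host by GENCODE span, though *Mir5133* and *Mir129-1* were each alone on their deposited locus. *Cdk9*, a kinase of transcription elongation that holds *Mir2861* outside its coding sequence, was at 38.4 (WT) and 36.1 FPKM (KO). *Glce*, an enzyme of heparan sulfate synthesis that holds *Mir5133*, was at 9.96 and 10.4 FPKM. *Mir129-1* lies over an exon of the lincRNA *Gm3294*, which was at 0.339 (WT) and 0.297 FPKM (KO). Of the repeat copies, AL844840.1 lies in an intron of *Sp3* (28.7 and 31.4 FPKM), a zinc finger transcription factor, AC136976.1 of *Arsb* (36.9 and 42.1 FPKM), a lysosomal sulfatase, and AC132380.1 of *Trap1* (17.97 and 18.29 FPKM), a mitochondrial chaperone. Of the snRNA models, a model named U6 at 0 in WT lies in an intron of *Lpgat1* (71.8 and 87.0 FPKM), an acyltransferase, and AC161348.1 in one of *Ep400* (8.84 and 11.4 FPKM), a chromatin remodeler.

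**Figure D5:**
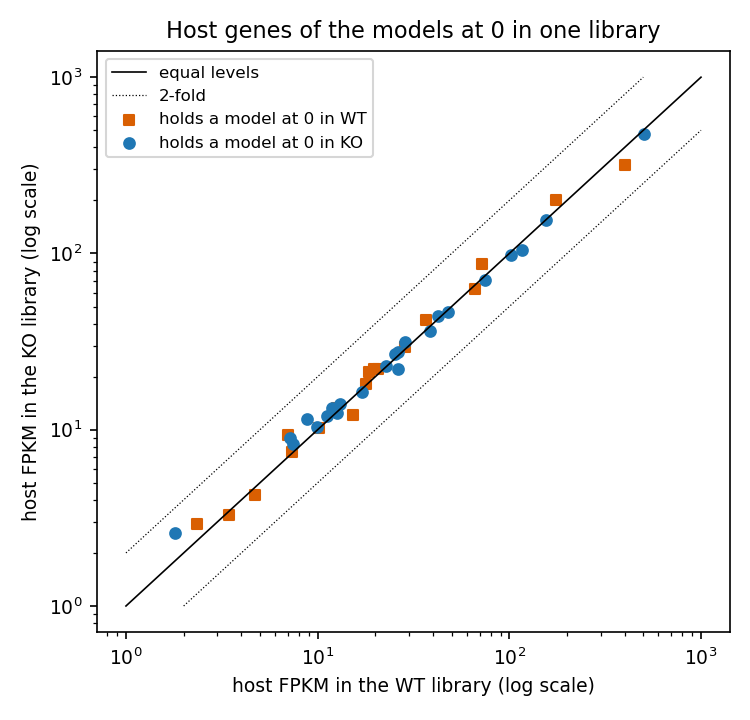
FPKM in KO against FPKM in WT, both on log scales, for the 41 host genes at 1 FPKM or more in WT and in KO. Orange squares hold a model at 0 in WT and blue circles a model at 0 in KO; all hosts lie close to the line of equal levels and inside the dotted 2-fold lines.

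Genes that make the small RNAs were above 0 in both libraries. The 15 measured gene models of the miRNA pathway, among them *Drosha* and *Dgcr8*, which cut the primary transcript, *Xpo5*, which exports the precursor, and *Dicer1*, which releases the mature miRNA, had log2 ratios from -0.29 to 0.30 with a median of 0.07. *Drosha* was at 29.6 (WT) and 29.7 FPKM (KO), and *Dicer1* at 8.74 and 9.53 FPKM. The 11 genes of snoRNA-bound proteins had log2 ratios from -0.34 to 0.16 with a median of -0.06. *Dkc1*, the pseudouridine synthase of box H/ACA particles, was at 13.6 (WT) and 15.3 FPKM (KO), and *Gar1*, another core protein of these particles, at 17.0 and 13.3 FPKM. None of these 26 models differed by 2-fold, against 1.06% of the 13026 models with a mean of at least 1 FPKM. With so few models, this count does not set them apart from the rest.

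Near the threshold of 1 FPKM, the models just inside were Gm16042 (mean of 1.07 FPKM) and 2 of the U1 models (1.099 and 1.12 FPKM). Just outside were *Gm12571* (0.979 FPKM), *Gm10059* (0.932 FPKM) and a further U1 model (0.923 FPKM).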

How the data were processed

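Total RNA of cerebral cortex had been made into 1 WT and 1 KO strand-specific library, and the number of mice in each is not given in the sources used here. Per the labels, the authors used TopHat and Cufflinks with GRCm38, and versions are not given in the sources used here. The labels name a NucleoSpin miRNA kit for cortex or hippocampus, whereas the study's methods name RNeasy. The deposited gene and isoform tables give FPKM as the authors computed it. The authors' p-values, q-values and fold changes were not used. The tables hold no fragment counts, so depth is unknown and no interval is given.

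Gene models at exactly 0 in 1 library with a mean of at least 1 FPKM were taken, without mt- symbols. Log2 ratios are of KO + 1 over WT + 1 FPKM. Class, exons and hosts came from GENCODE M21, matched by identifier (35529 of 37303). Length was that of the deposited locus for a model alone on it without a GENCODE transcript of several exons. Otherwise it was that of the longest GENCODE transcript. Models alone on their locus but not found in GENCODE thus have the length of the locus, and their exons are unknown. Coordinates are GRCm38, counted from 1. Copies were searched with BLAST+ 2.17.0+, and tables were handled with pandas 2.3.3. The selection was tested on simulated data. No test between genotypes exists with 1 library each. Alternatives were the minimum mean, what counts as 0, the pseudocount, the length limit and the definition of a host.

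The members and gene lists were chosen with earlier results of these data known. Genes to be named were all miRNA members, the 10 highest in each direction, members on loci of at least 1000 bp, those nearest the threshold, hosts and models of the same symbol. Since 51 members lie on such loci, all 80 members are named. Sequences of the near-identical repeat models are not reported here.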

Additional observations from a re-analysis of the deposited data

How the results depend on the processing

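With 1 library per genotype no replicate could be left out. No paired analysis was possible because each genotype has 1 library. The number of models at 0 in 1 library depended on the minimum mean: 127 at 0.3 FPKM (60 at 0 in WT, 67 in KO), 49 at 5 FPKM (24 and 25) and 2452 with none (1252 and 1200), against 80 (38 and 42). It was 80 when values below 0.01 FPKM counted as 0 and 82 with mt- symbols kept in. With a pseudocount of 10 FPKM, 49 of the 80 passed 2-fold. A length limit of 100 bp left 12 short models in place of 71, and the deposited locus in place of the model length, an alternative chosen after seeing the data, left 28, since most short models share a longer locus. Under a minimum mean of 5 FPKM the share at 0 in 1 library was 0% from 200 to under 500 bp and 0.287% from 500 to under 1000 bp, where single models decide it, and the shares of the miRNA, snoRNA and snRNA classes were 80.8%, 76.9% and 50.0%. Any overlap gave 49 members with a host, the same strand 34, and hosts of at least 1 FPKM 42, against 47.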

Other observations

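Below a mean of 1 FPKM, 2372 further gene models were at 0 in 1 library. Their median mean was 0.0289 FPKM and their median length 1046 bp. Among those of 500 bp or more, the highest means were those of *Lcn2*, which encodes the iron-binding protein lipocalin 2 and was at 1.08 FPKM in WT and 0 in KO, *4930500M09Rik* (0 in WT, 0.691 FPKM in KO) and *Crygn*, a crystallin gene (0.607 FPKM in WT, 0 in KO). *Mir5105*, a miRNA-named model above 0 in both libraries, was at 585764 (WT) and 464201 FPKM (KO).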
